A study of Homo sapiens with 9 samples.

Results

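The HOX genes encode homeodomain transcription factors and lie in 4 clusters, HOXA on chromosome 7, HOXB on chromosome 17, HOXC on chromosome 12 and HOXD on chromosome 2. The 38 members described here are the listed HOX genes of these clusters (10 HOXA, 10 HOXB, 9 HOXC and 9 HOXD), found among the 57820 gene identifiers of the count tables by their symbols, and 38 of 38 were matched. The list was drawn up by gene name, but it was chosen with earlier results of these data known.

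Daoy is an established cell line from a human medulloblastoma, which is a cerebellar tumour. Its RNA was read in 9 libraries to compare cells with and without DDX3X, an RNA helicase of the DEAD-box family that is recurrently mutated in this tumour. The 2 controls were parental Daoy cells and cells with the empty vector. The 3 knockdown libraries came from cells with a hairpin RNA against DDX3X, inducible by doxycycline, directed at the 3' untranslated region (UTR; shDDX3X 1 and 3) or at the open reading frame (ORF; shDDX3X 2). The remaining 4 libraries came from cells with the 3' UTR hairpin that were also transfected with FLAG-tagged DDX3X, 1 library with the wild type protein and 1 with each of the mutants G302V, R534H and P568L, which are treated as 3 replicates of a mutant group. The treatment text, 1 µg/ml doxycycline for 72 h, is the same for every library and does not say whether each control received the drug, so doxycycline and knockdown cannot be told apart against the controls. The growth text calls the hairpin lines polyclonal populations, and nothing says whether replicates were separate cultures, so the spread behind each p-value may be technical.

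In vertebrate embryos the position of a HOX gene within its cluster follows the position along the head-to-tail axis at which it is switched on. Genes at the 3' end (paralogue groups 1 to 3) pattern the hindbrain and pharyngeal arches, the central groups 4 to 8 the neck and trunk, and groups 9 to 13 the lumbar and tail region, limbs and urogenital tract. Polycomb complexes keep silent clusters closed, Trithorax-type methyltransferases and retinoic acid help to open them, and PBX and MEIS proteins bind DNA together with HOX proteins. The cerebellum forms in front of the HOX domain of the neural tube, so granule neurons and their precursors usually lack most HOX transcripts.

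The libraries held 8216568 to 13030572 reads in genes. For a gene without a read the upper limit was 0.230 to 0.365 CPM, the read count scaled to a common library size (3 counts of the library total, counting error only). CPM values of members below are scaled by edgeR's TMM factors. The order in each sentence of values is parental and vector for the controls, shDDX3X 1, 2 and 3 for the knockdowns, then the libraries labelled wild type, G302V, R534H and P568L. The numbers in the deposited names split the libraries into a series A (parental, shDDX3X 1 and 2) and a series B of consecutive numbers (the other 6). This split is not a labelled batch, but 1819 of 16155 genes differed between the series, and 5.24% to 5.73% of reads were unaligned in series A against 19.6% to 24.0% in series B. The model therefore had a term for series. The only control of series A is parental cells and the only control of series B is vector cells, so series and kind of control cannot be told apart.

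DDX3X itself was at 682 and 452 CPM in the controls, 248, 139 and 182.1 in the knockdowns, 195 in the wild type library and 197, 211 and 241 in the mutants. The knockdowns lay below both controls (log2 fold change -1.60, SE 0.24, adjusted p = 0.0357, edgeR quasi-likelihood test with Benjamini-Hochberg adjustment). The libraries labelled wild type and mutant were not above the range of the knockdowns (log2 fold change against knockdown 0.24, SE 0.34, adjusted p = 1, and 0.39, SE 0.27, adjusted p = 0.841, edgeR). The RNA counts show the knockdown but do not separate the re-expressing libraries from it, so the words wild type and mutant below follow the labels.

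Daoy cells expressed genes of all 4 HOX clusters. Of the 38 members, 34 reached 1 CPM in 2 or more libraries (10 of 10 HOXA, 9 of 10 HOXB, 8 of 9 HOXC and 7 of 9 HOXD), 31 did so in all 9 libraries and 26 had a mean of 5 CPM or more. Summed over the 38 genes, HOX transcripts made up 351.9 to 440.4 CPM per library, a 1.25-fold range. The HOXC sum varied least, from 81.5 to 105.9 CPM, and the HOXA sum varied most, from 81.1 CPM in G302V to 176.3 CPM in shDDX3X 2. The series A knockdowns had the highest HOXA sums, 146.2 and 176.3 CPM, against 117.5 CPM in parental and 100.1 CPM in vector cells. In bulk RNA a change in the number of cells that express a gene and a change in RNA per cell cannot be told apart.

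**Figure D1:**
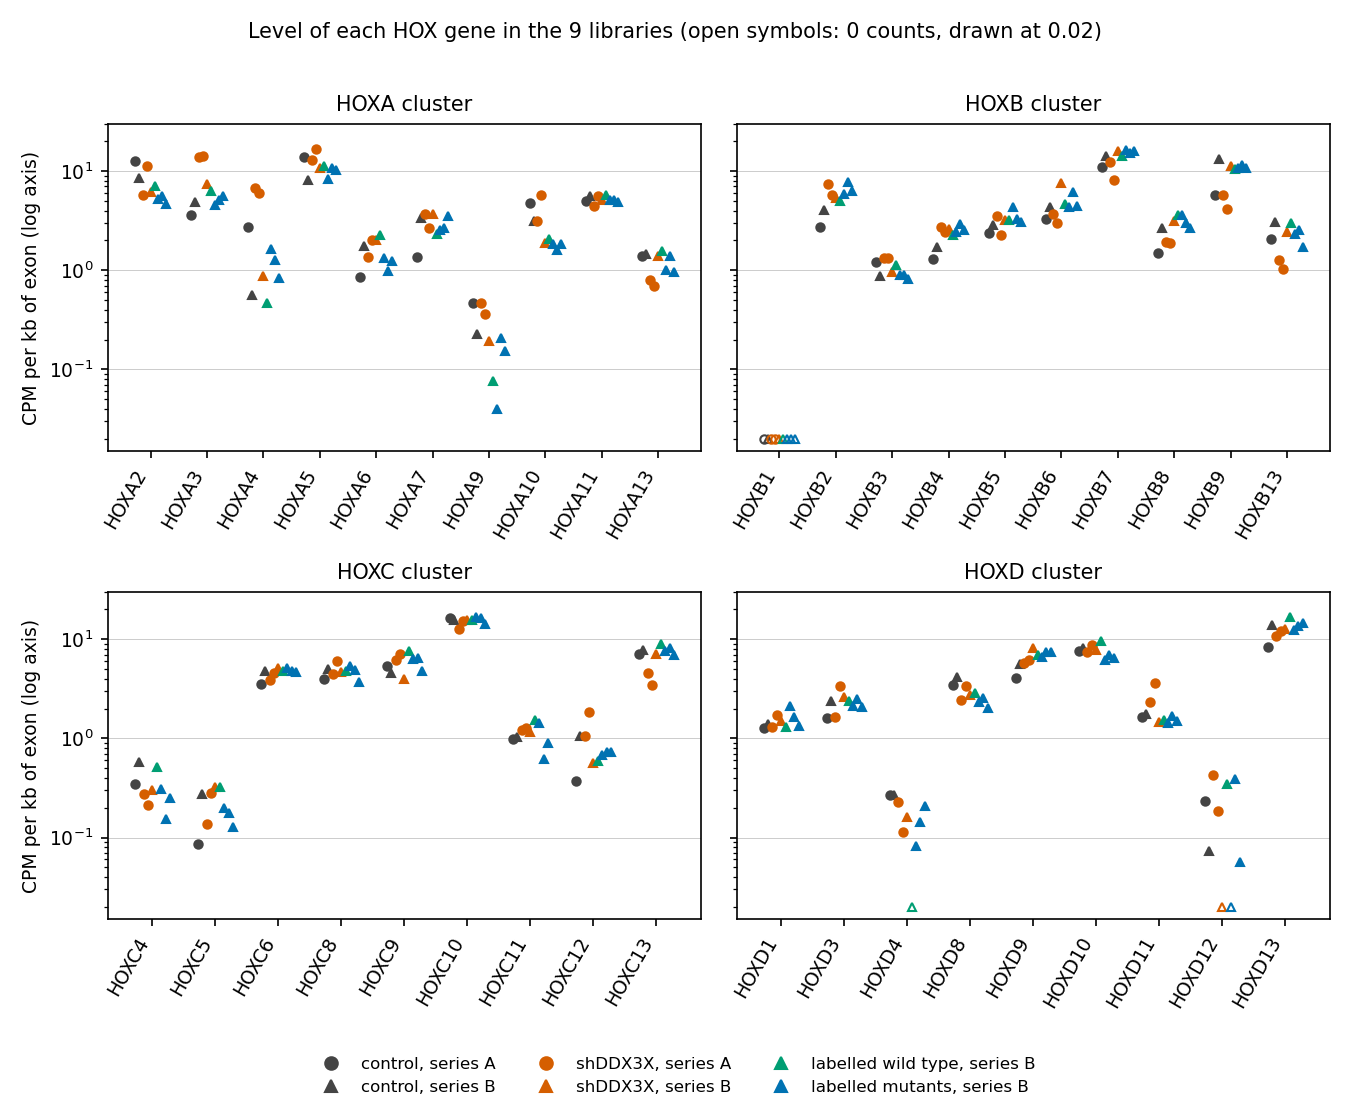
CPM per kb of exon (log axis) of the 38 HOX genes in the 9 libraries, 1 panel per cluster with genes in order of paralogue group. Colour gives the group, circles are series A and triangles series B, and open symbols mark 0 counts. All 4 clusters hold genes above 5 CPM per kb, while HOXB1 is at 0 in every library.

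Per length of exon, the highest members were HOXC10 (15.4 ± 1.29 CPM per kb, mean and SD of the 9 libraries), HOXB7 (13.7 ± 2.75), HOXD13 (12.8 ± 2.35), HOXA5 (11.4 ± 2.72) and HOXB9 (9.28 ± 3.18). The order joins central and posterior genes of 4 clusters, with HOXC10 and HOXD13 from the posterior groups that pattern the lumbar cord and the digits. The anterior genes HOXA2 (7.43 ± 2.84 CPM per kb) and HOXA3 (7.31 ± 4.03) came 7th and 8th. In the whole order of 38, the ranges of the 37 neighbouring pairs over the libraries overlapped in 37 cases. These ranges mix the groups and do not pair the values by library. HOXC6 (3.56 to 5.08 CPM per kb), for example, was above its neighbour HOXB5 (2.25 to 4.37) in every library. With the longest transcript as the length, 9 of the first 10 genes were again among the first 10, and with exon bases that no other gene shares, 7 were. The 3 genes that entered the first 10 in the second case were HOXD3 (from 24th to 8th), HOXA7 (from 20th to 9th) and HOXA11 (from 13th to 10th), which share 74.1%, 62.5% and 31.1% of their exon bases with other genes.

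The 4 members that did not reach 1 CPM in 2 or more libraries were HOXB1, HOXC5, HOXD4 and HOXD12. HOXB1, a marker of the fourth rhombomere of the hindbrain, had 0 counts in the 9 libraries together, which allows at most 0.0315 CPM over all of them. HOXC5 had 2 to 6 counts per library, HOXD4 0 to 5 and HOXD12 0 to 7, and the highest upper ends of their exact 95% Poisson intervals in any library were 1.40, 1.03 and 1.23 CPM. These counts may miss reads, because HTSeq can set reads in bases shared by genes aside as ambiguous. In the annotation used here for exon lengths, other gene entries share 80.5% of the exon bases of HOXD4 and 59.9% of those of HOXC5. The entries that overlap HOXC5 include a second one also named HOXC5. HOXD12 shares none. The counts were made on another genome build and the HTSeq options are not given. Whether HOXC5 and HOXD4 lost reads in this way was therefore not tested. The members that passed this rule with the fewest libraries were HOXC4 (1 CPM or more in 2 libraries) and HOXA9 (in 3 libraries).

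In the HOXA cluster, the anterior gene HOXA2, which patterns the second pharyngeal arch, was at 31.1 and 20.96 CPM in the controls, 13.96, 27.9 and 15.2 in the knockdowns, 17.2 in the wild type library and 12.8, 13.7 and 11.6 in the mutants. HOXA3, needed for thymus and parathyroid, was at 15.7 and 21.1 CPM in the controls, 60.4, 61.8 and 31.6 in the knockdowns, 26.9 in the wild type library and 19.7, 22.2 and 23.98 in the mutants. Parental cells held the highest HOXA2 and the lowest HOXA3 of the 9 libraries, and the series A knockdowns held more HOXA3 than the other 7 libraries. HOXA5, which acts in the developing lung, was at 23.9 and 13.8 CPM in the controls, 22.1, 28.4 and 18.5 in the knockdowns, 19.2 in the wild type library and 14.2, 18.2 and 17.6 in the mutants. HOXA7 was at 3.27 and 8.17 CPM in the controls, 8.84, 6.44 and 8.96 in the knockdowns, 5.58 in the wild type library and 6.15, 6.43 and 8.51 in the mutants. In both genes the range of the controls was at least as wide as that of the knockdowns. HOXA10, which patterns the uterus and lumbar spine, was at 17.8 and 11.7 CPM in the controls, 11.7, 21.1 and 6.96 in the knockdowns, 7.67 in the wild type library and 6.76, 5.90 and 6.90 in the mutants. HOXA11, a gene of the forearm and kidney, was at 11.4 and 12.99 CPM in the controls, 10.2, 12.9 and 11.8 in the knockdowns, 13.4 in the wild type library and 11.7, 11.8 and 11.2 in the mutants. HOXA13, a gene of digits and genital tract, was at 7.08 and 7.48 CPM in the controls, 4.05, 3.51 and 7.08 in the knockdowns, 8.02 in the wild type library and 5.07, 7.06 and 4.90 in the mutants. HOXA11 was among the most even members, with 1.32-fold between its lowest and highest library, while HOXA10 in series B apart from vector lay between 5.90 and 7.67 CPM and in series A between 11.7 and 21.1 CPM. Below a mean of 5 CPM, HOXA4 ranged from 0.814 to 11.8, HOXA6 from 1.09 to 2.91 and HOXA9 from 0.121 to 1.40 CPM.

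In the HOXB cluster, HOXB2, which acts in the hindbrain, was at 6.38 and 9.45 CPM in the controls, 17.3, 13.4 and 12.5 in the knockdowns, 11.8 in the wild type library and 13.6, 18.1 and 14.6 in the mutants. HOXB3 was at 9.10 and 6.50 CPM in the controls, 9.91, 9.95 and 7.08 in the knockdowns, 8.37 in the wild type library and 6.76, 6.75 and 6.05 in the mutants. HOXB4, known for expanding blood stem cells when forced, was at 4.90 and 6.40 CPM in the controls, 10.3, 9.03 and 9.91 in the knockdowns, 8.61 in the wild type library and 9.17, 11.1 and 9.50 in the mutants. The controls were the lowest 2 libraries for HOXB2 and HOXB4 but not for HOXB3, which lies between them. HOXB5, a gene of enteric neural precursors, was at 4.90 and 5.81 CPM in the controls, 7.27, 4.60 and 6.61 in the knockdowns, 6.63 in the wild type library and 8.93, 6.75 and 6.21 in the mutants. HOXB6 was at 8.48 and 11.3 CPM in the controls, 9.58, 7.78 and 19.7 in the knockdowns, 12.1 in the wild type library and 11.3, 15.9 and 11.7 in the mutants. HOXB7 was at 16.96 and 21.6 CPM in the controls, 18.7, 12.4 and 24.5 in the knockdowns, 21.9 in the wild type library and 24.7, 23.5 and 24.3 in the mutants. In all 3 genes shDDX3X 2, the ORF hairpin, was the lowest of the 9 libraries. HOXB8 was at 3.03 and 5.41 CPM in the controls, 3.97, 3.85 and 6.37 in the knockdowns, 7.44 in the wild type library and 7.48, 6.11 and 5.44 in the mutants. HOXB9 was at 14.9 and 34.1 CPM in the controls, 14.9, 10.7 and 29.02 in the knockdowns, 26.98 in the wild type library and 27.9, 29.5 and 27.6 in the mutants. HOXB13, a gene of the prostate and tail region, was at 7.16 and 10.7 CPM in the controls, 4.38, 3.60 and 8.38 in the knockdowns, 10.5 in the wild type library and 7.96, 8.75 and 5.98 in the mutants. HOXB8 and HOXB9 were higher in each of the 6 series B libraries than in all 3 series A libraries, and HOXB13 was so in 5 of the 6, P568L being the exception.

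HOXB8 is also a textbook target of the microRNA miR-196, which is encoded within the HOX clusters. Mature sequences of microRNAs of the clusters, from RefSeq (GRCh38.p14), are shown with the seed, bases 2 to 8, in capitals, because 3 of the loci share 1 seed:
miR-10a-5p, HOXB cluster, chr17:48579904-48579926, minus strand: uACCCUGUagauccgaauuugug
miR-196a-5p, HOXB cluster, chr17:48632532-48632553, minus strand, and HOXC cluster, chr12:53991762-53991783, plus strand: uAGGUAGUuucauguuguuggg
miR-196b-5p, HOXA cluster, chr7:27169528-27169549, minus strand: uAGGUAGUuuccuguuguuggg
miR-615-3p, HOXC cluster, chr12:54034010-54034031, plus strand: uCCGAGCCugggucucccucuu
The best match for miR-196a in the HOXB8 3' UTR (GENCODE release 29, its first base at position 411 of 856, counted from 1 after the stop codon), with paired bases in capitals, and the best seed matches of HOXA7 and HOXC8, with the seed match in capitals (its first base at position 472 and 864), read as follows:
HOXB8: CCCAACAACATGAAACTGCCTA
HOXA7: cctactcccctaaaACTACCTa
HOXC8: taaatctttaacatACTACCTa

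The HOXB8 window pairs with miR-196a at 21 of 22 bases and at the other by a G:U pair, and only 2 of 18896 genes, HOXB8 included, had a 3' UTR window that pairs at 22 bases when G:U is counted. The seed match of miR-196 (ACTACCT, searched on the mRNA strand) was in the 3' UTR of 8 of 38 members, 21.1%, against 6.94% of 19021 genes: HOXA5, HOXA7, HOXA9, HOXB1, HOXB6, HOXB7, HOXB13 and HOXC8. That of miR-10a (ACAGGGT) was in 2 members, HOXA3 and HOXB3, or 5.26% against 12.3% of genes. A match is a description of letters and not a site in use, and the mature microRNAs were not measured in these poly(A) libraries. Of the 9 members with such a miR-196 window, 8 were tested. Against control, 6 of them had a higher and 2 a lower estimate in the knockdowns (23 and 11 among all 34 tested members), with log2 fold changes from -0.63 to 0.73, and edgeR called 0, against 0.675% of all genes.

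In the HOXC cluster, HOXC6 was at 12.6 and 17.02 CPM in the controls, 13.8, 16.1 and 17.9 in the knockdowns, 16.8 in the wild type library and 17.98, 16.9 and 16.6 in the mutants. HOXC8, a gene of brachial motor neurons, was at 7.55 and 9.35 CPM in the controls, 8.43, 11.3 and 8.85 in the knockdowns, 8.95 in the wild type library and 10.2, 9.17 and 7.05 in the mutants. HOXC9, which sets thoracic motor neuron identity, was at 8.95 and 7.58 CPM in the controls, 10.3, 11.8 and 6.61 in the knockdowns, 12.8 in the wild type library and 10.6, 10.8 and 7.97 in the mutants. HOXC6 and HOXC8 stayed within 1.43-fold and 1.60-fold over the 9 libraries, and HOXC9 within 1.94-fold. HOXC10, a gene of lumbar motor neurons, was at 38.6 and 36.6 CPM in the controls, 29.4, 35.5 and 36.8 in the knockdowns, 36.8 in the wild type library and 38.9, 37.95 and 33.1 in the mutants. HOXC13, which controls hair and nail keratin genes, was at 17.3 and 18.99 CPM in the controls, 11.1, 8.28 and 17.2 in the knockdowns, 21.8 in the wild type library and 18.2, 19.8 and 16.8 in the mutants. HOXC10 was within 1.32-fold, and for HOXC13 the series A knockdowns were the 2 lowest of the 9 libraries. HOXC4 ranged from 0.422 to 1.57, HOXC11 from 2.003 to 5.0 and HOXC12 from 1.25 to 6.19 CPM, and HOXC12 was highest in shDDX3X 2.

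In the HOXD cluster, HOXD3, which shapes the first neck vertebra, was at 5.68 and 8.37 CPM in the controls, 5.87, 11.9 and 9.20 in the knockdowns, 8.49 in the wild type library and 7.60, 8.75 and 7.28 in the mutants. HOXD8 was at 9.02 and 10.8 CPM in the controls, 6.44, 8.86 and 7.20 in the knockdowns, 7.56 in the wild type library and 6.15, 6.75 and 5.36 in the mutants. HOXD9 was at 7.55 and 10.4 CPM in the controls, 10.7, 11.5 and 15.2 in the knockdowns, 13.02 in the wild type library and 12.4, 13.9 and 13.8 in the mutants. The controls held the 2 lowest values of HOXD9 and the 2 highest of HOXD8. HOXD10, a gene of lumbar motor neurons, was at 20.5 and 22.04 CPM in the controls, 20.1, 23.3 and 21.0 in the knockdowns, 25.6 in the wild type library and 16.6, 18.8 and 17.3 in the mutants. HOXD13, a gene of the digits, was at 18.8 and 31.1 CPM in the controls, 24.4, 27.4 and 28.2 in the knockdowns, 37.3 in the wild type library and 27.9, 30.7 and 32.8 in the mutants. HOXD10 was lower in the mutants than in the other 6 libraries, and HOXD13 was lowest in parental cells and highest in the wild type library. HOXD1 ranged from 2.49 to 4.22 CPM and HOXD11 from 3.02 to 7.69 CPM, and HOXD11 was highest in shDDX3X 2.

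The library labelled shDDX3X 2 was the highest of the 9 for 8 of the 34 expressed members and the lowest for 7, while over the 16155 genes tested it was each for 12.8%. Parental cells were the lowest of the 9 libraries for 12 members and the highest for 1 (HOXA2), whereas over all genes they were the lowest for 25.7% and the highest for 24.8%. The wild type library was the highest for 8 members, among them HOXA13, HOXC13, HOXD10 and HOXD13, and for 7.23% of all genes. P568L was the highest for 0 members and the lowest for 4, against 6.16% and 6.06% of all genes. Across the 34 expressed members, log2 levels of 2 libraries of the same series correlated with Pearson's r between 0.840 and 0.984 (18 pairs, median 0.962). Those of different series had r between 0.753 and 0.886 (18 pairs, median 0.849). Parental cells did not follow this split. Their r was 0.843 and 0.840 with shDDX3X 1 and 2 of their own series. With the series B libraries it was 0.848 (P568L) to 0.886 (vector). These values are a description across genes, which are not replicates, and libraries of 1 series share what sets the series apart.

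The comparison of the 3 knockdowns with the 2 controls asks how HOX expression depends on DDX3X. Estimates were higher in the knockdowns for 23 of the 34 tested members and lower for 11, with a median log2 fold change of 0.19 against -0.01 over all genes tested. After adjustment over all genes, 0 of 34 members were called at 0.05 by edgeR's quasi-likelihood test, where 0.675% of all genes were. By DESeq2, 1 member was called, HOXA3 (log2 fold change 1.37, SE 0.30, adjusted p = 0.000535), where 9% of genes were. At an unadjusted p under 0.05 in edgeR there were 6 members, against 22% of genes, so the members' share was near the background.

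HOXA3 had the largest estimate. Its log2 fold change was 1.36 (SE 0.30, 95% interval 0.68 to 2.03, adjusted p = 0.0644, edgeR), and all 3 knockdowns lay above both controls. The value was called when genes were not filtered (1.35, adjusted p = 8.47e-06, edgeR, where 5.79% of genes were called), and without the vector library or without shDDX3X 3 (1.95, adjusted p = 0.000413, and 1.96, adjusted p = 0.000435, edgeR). These last 2 settings leave series A to carry the comparison, and in both HOXB2 and HOXC12 were called too, where 12.9% and 13% of all genes were. Without parental cells, which leaves series B to carry it, HOXA3 was at 0.58 (adjusted p = 0.605, edgeR), HOXB2 at 0.40 (adjusted p = 0.793) and HOXA4 at 0.63 (adjusted p = 0.839). HOXB4 (log2 fold change 0.83, SE 0.26, adjusted p = 0.117) and HOXB2 (0.89, SE 0.29, adjusted p = 0.125) were higher in 3 of 3 knockdowns than in both controls. HOXA4, at 4.75 and 0.984 CPM in the controls and 11.8, 10.5 and 1.53 CPM in the knockdowns, had an estimate of 1.05 (SE 0.39, adjusted p = 0.164) with overlapping groups. HOXD9 (0.55, SE 0.22, adjusted p = 0.179) had groups that did not overlap, but with each library's trend in transcript GC content removed its value turned to -0.15. On the same setting HOXA3 was at 1.15, HOXB2 at 0.60, HOXB4 at 0.68 and the median of the 34 members at 0.00.

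Among the posterior genes, the 3 knockdowns lay below both controls for HOXC13, but only just, with 17.22 CPM in shDDX3X 3 and 17.27 CPM in parental cells. The HOXC13 estimate was lower in the knockdowns (-0.54, SE 0.24, adjusted p = 0.215, edgeR). Without parental cells it was at -0.14 (adjusted p = 0.937, edgeR), without vector cells or shDDX3X 3 at -0.84 and -0.83, and with the GC trend removed at -0.87. HOXB13 (-0.63, SE 0.29, adjusted p = 0.229) and HOXA13 (-0.56, SE 0.31, adjusted p = 0.335) had lower estimates as well, whereas HOXD13, the remaining gene of group 13, had 0.20 (SE 0.21, adjusted p = 0.613). By position, 5 of 6 anterior members (groups 1 to 3) and 11 of 13 central members (groups 4 to 8) had higher estimates, and 7 of 15 posterior members (groups 9 to 13) did. The medians were 0.31, 0.24 and -0.05 on the log2 scale, and with the GC trend removed they were 0.05, 0.14 and -0.24. Groups did not overlap for 5 members that were higher (HOXA3, HOXB2, HOXB4, HOXC11 and HOXD9), against 10.1% of all genes, and for 4 that were lower (HOXA13, HOXC4, HOXC13 and HOXD8), against 10.8% of genes. For HOXA13 the groups all but touched, with 7.078 CPM in shDDX3X 3 and 7.079 CPM in parental cells. The 95% interval of the fold change lay wholly within 2-fold either way for 15 of the 34 members, and for the others it reached further.

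**Figure D2:**
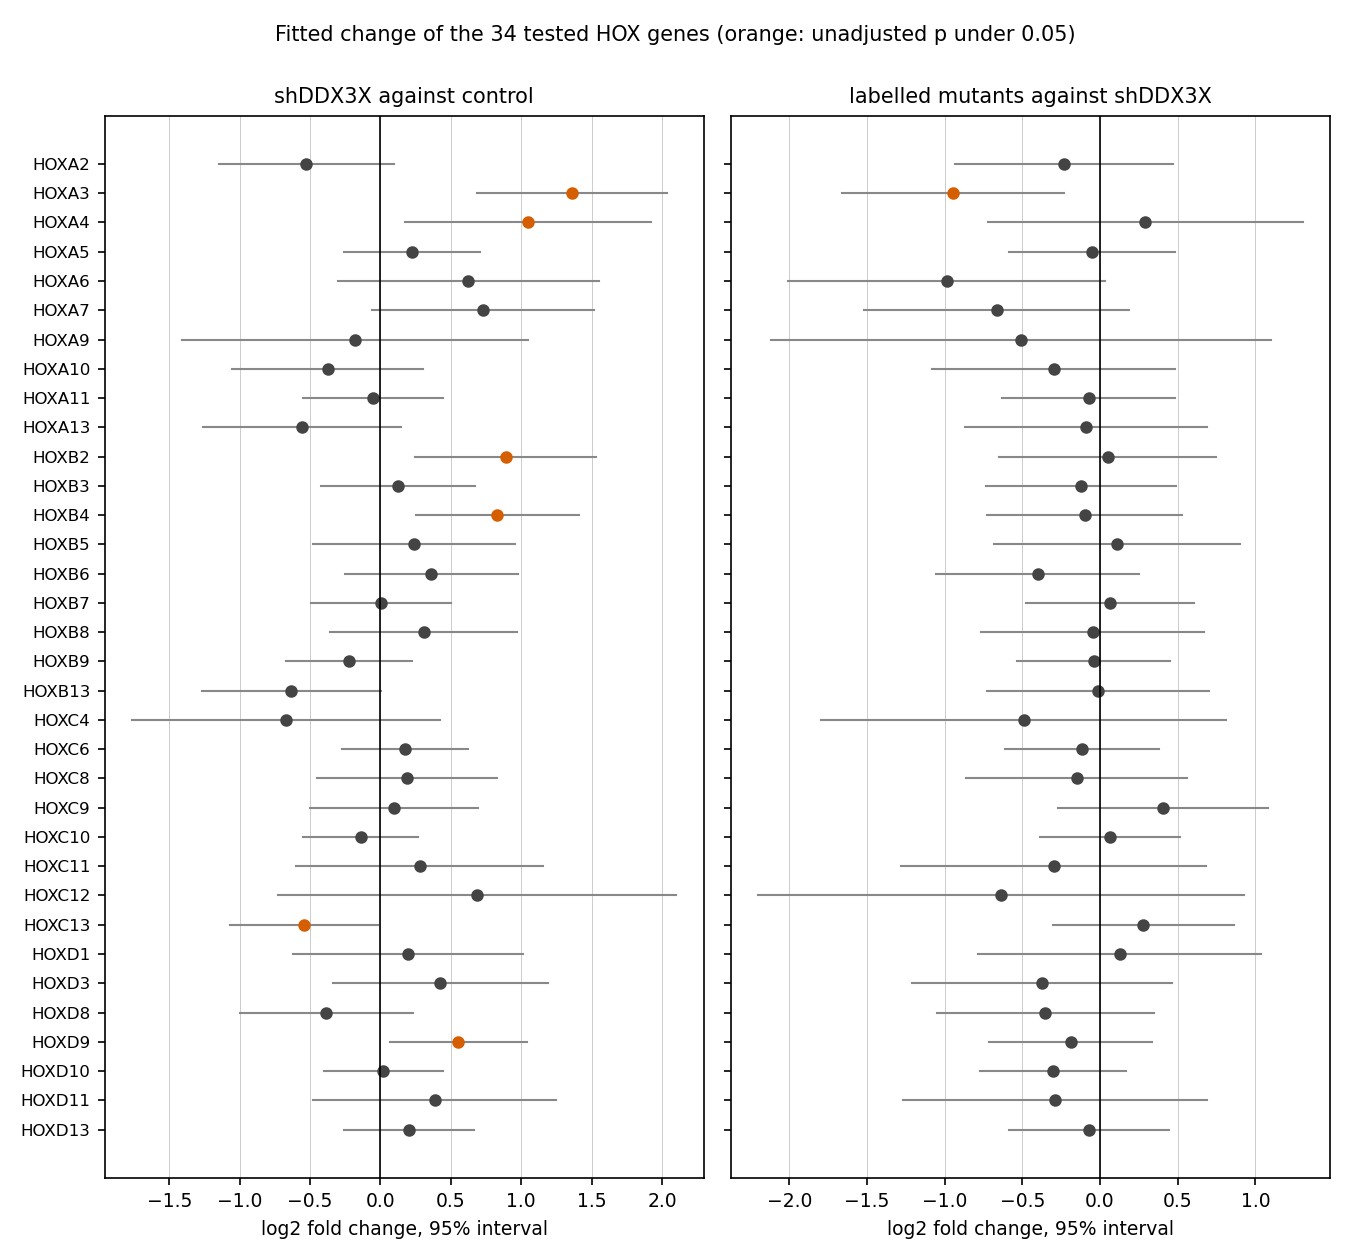
Fitted log2 fold change (point) with 95% interval (line) of the 34 tested HOX genes for knockdown against control (left) and labelled mutants against knockdown (right), with unadjusted p under 0.05 in orange. HOXA3 is the gene furthest to the right on the left side, at 1.36, and is at -0.95 on the right side.

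The knockdowns were also read against the control of their own series. On the log2 scale with 0.5 CPM added to each value, HOXA3 was 1.91 (shDDX3X 1) and 1.94 (shDDX3X 2) above parental cells, and 0.57 (shDDX3X 3) above vector cells. HOXC12 was 1.22 and 1.94 above parental cells but at -0.76 against vector cells. HOXB4, by contrast, gave 1.003, 0.82 and 0.59. A term for the difference of the knockdown effect between series, added after the data were seen, was -1.37 for HOXA3 (SE 0.37, adjusted p = 0.0747, edgeR) and -2.86 for HOXC12 (SE 0.81, adjusted p = 0.0915). It was called for 0 of 34 members, against 3.19% of all genes, and 2 members had an unadjusted p under 0.05, against 13.6% of genes. Series B has 1 knockdown and 1 control, so there the ratio has no replicate. Its control carries the empty vector and that of series A is parental cells. A difference of the knockdown effect between series therefore cannot be told apart from a difference between the controls.

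**Figure D3:**
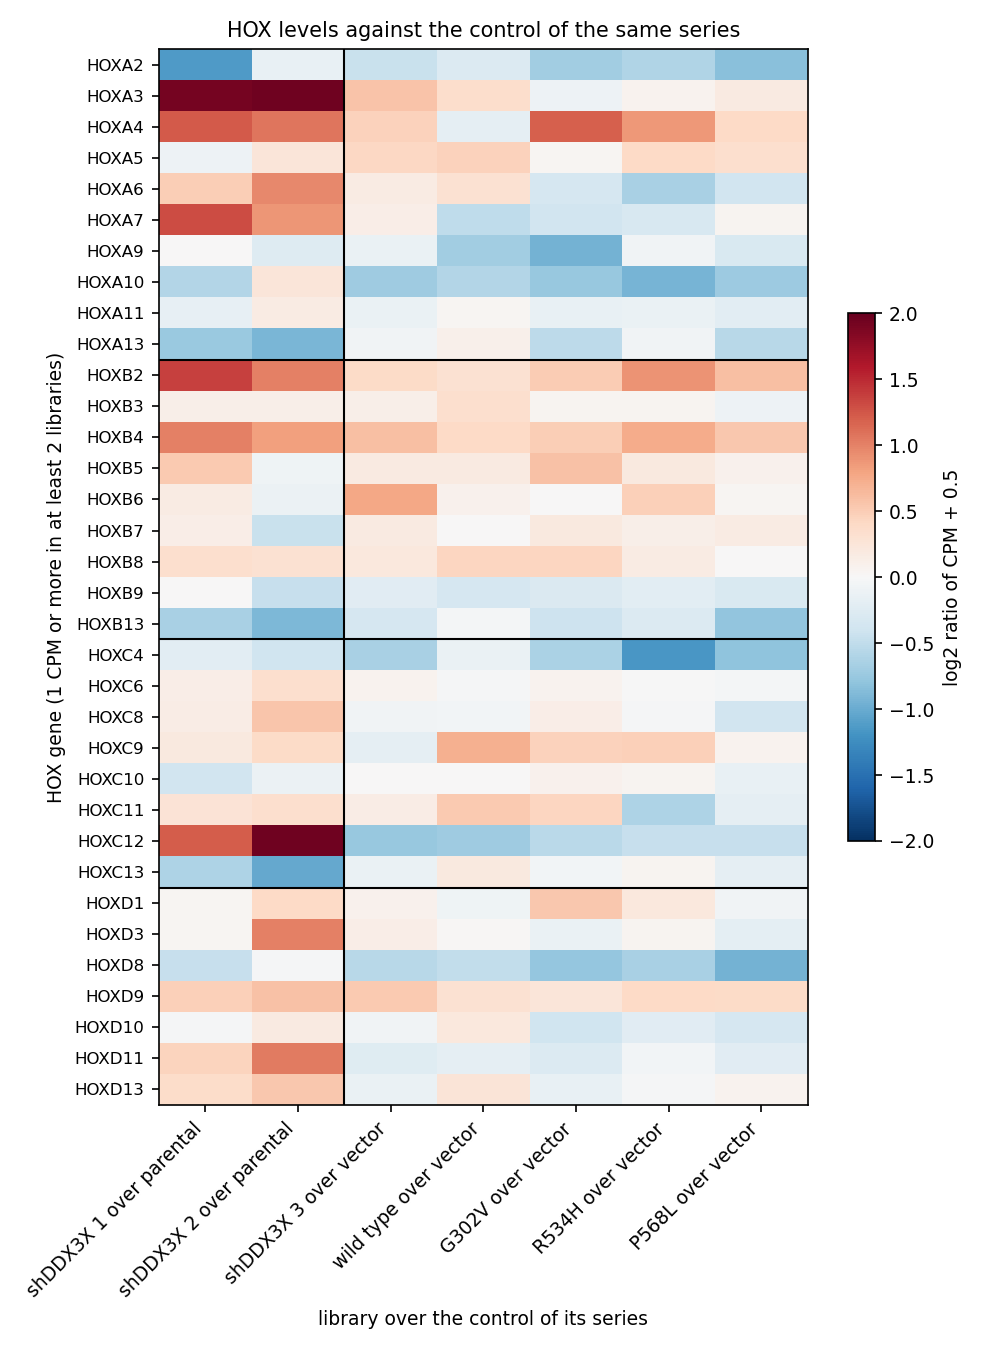
Log2 ratio (0.5 CPM added) of each library to the control of its own series for the 34 expressed HOX genes, red above and blue below the control, from -2 to 2. The libraries of a series share 1 control, parental cells in the left 2 columns and vector cells in the right 5. HOXA3 and HOXC12 are darkest red in shDDX3X 2, at 1.94 each.

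The 2 hairpins differ in the part of the DDX3X mRNA they target. With 1 ORF library (shDDX3X 2) against 2 3' UTR libraries, 0 of 34 members were called by edgeR, as were 0% of all genes. There were 4 members at an unadjusted p under 0.05, against 9.12% of genes, and DESeq2 called 0.728% of genes and 0 members. These 4 were HOXD3 (0.99, SE 0.35, adjusted p = 0.426, edgeR), HOXA10 (0.88, SE 0.31, adjusted p = 0.426), HOXA2 (0.82, SE 0.31, adjusted p = 0.470) and HOXB7 (-0.60, SE 0.27, adjusted p = 0.544). The clusters leaned in different directions, with higher estimates for the ORF hairpin in 7 of 7 HOXD members (median 0.41) and in 1 of 9 HOXB members (median -0.38). The single ORF library is assumed to vary as the other groups do. Without shDDX3X 1, HOXC12 was called, where 5.75% of genes were, and HOXA2 was at 0.31 (adjusted p = 0.774, edgeR).

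The libraries labelled mutant, which carry the 3' UTR hairpin as well, were compared with the knockdowns to see what mutant DDX3X adds. Of the 34 members 8 had higher and 26 lower estimates, with a median log2 fold change of -0.12 against 0.01 over all genes. By edgeR 0 members were called, as were 0% of genes. DESeq2 called 0 members and 0.142% of genes. HOXA3 alone had an unadjusted p under 0.05 (5.53% of genes did), and was at -0.95 on the log2 scale (SE 0.32, adjusted p = 0.831, edgeR). Its 3 mutant libraries, at 19.7 to 24.0 CPM, lay below the 3 knockdowns and overlapped the range of the controls. Without shDDX3X 3, the only knockdown in the series of the mutants, HOXA3 was called at -1.90 (adjusted p = 0.00518, edgeR), a value that then rests on libraries of different series, where 6.2% of genes were called. It was at -0.52 (adjusted p = 1, edgeR) without parental cells, without vector cells and with only the groups compared. Mutants and knockdowns did not overlap for 7 members, all lower in the mutants (HOXA2, HOXA3, HOXA5, HOXA6, HOXA10, HOXB3 and HOXD10), against 6.81% of genes, and for 0 members that were higher, against 7.82% of genes. All mutants are in series B and 2 of the 3 knockdowns in series A, and of these 7 members HOXA2, HOXA3, HOXA5, HOXA10 and HOXB3 had their 2 or 3 highest values in series A.

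The wild type library against the knockdowns gave 14 higher and 20 lower estimates (median -0.06) and 0 calls by edgeR, as for 0% of genes. At an unadjusted p under 0.05 there were 0 members, against 2.93% of genes, and DESeq2 called 0 members and 0.0186% of genes. The estimates of HOXA7 (-1.003, SE 0.51, adjusted p = 1, edgeR) and HOXC9 (0.79, SE 0.37, adjusted p = 1) were the largest among members with a mean of 5 CPM or more. With shDDX3X 3 left out HOXA3 was called here too, where 3.71% of genes were.

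Between the mutants and the wild type library 13 estimates were higher and 21 lower (median -0.15), and 0 members were called by edgeR or DESeq2, as were 0% of genes. HOXD10 (-0.54, SE 0.23, adjusted p = 1, edgeR) and HOXA4 (1.39, SE 0.59, adjusted p = 1) had an unadjusted p under 0.05, as did 1.95% of genes. HOXD10 was at 25.6 CPM in the wild type library, the highest of 9, and at 16.6, 18.8 and 17.3 CPM in G302V, R534H and P568L, the 3 lowest. HOXA4 was at 0.814 CPM in the wild type library and at 2.90, 2.21 and 1.46 CPM in the mutants. All 4 libraries are in series B, and the single wild type library is again assumed to vary as the rest. For 12 of the 34 members the 95% interval lay within 2-fold either way.

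Against the controls the mutants had 19 higher and 15 lower estimates (median 0.04 against 0.03 over all genes). edgeR called 0 members and 0.0186% of genes, and DESeq2 0 members and 1.03% of genes. At an unadjusted p under 0.05 there were 5 members, against 11.9% of genes. HOXB2 (0.94, SE 0.30, adjusted p = 0.294, edgeR) and HOXB4 (0.73, SE 0.28, adjusted p = 0.365) were higher in 3 of 3 mutants than in both controls, as they were in the knockdowns, which share these controls. HOXA2 (-0.76, SE 0.31, adjusted p = 0.385) and HOXD8 (-0.74, SE 0.30, adjusted p = 0.381) were lower in 3 of 3 mutants than in both controls. HOXA4 (1.34, SE 0.47, adjusted p = 0.320) is the fifth, and its sign rests on the series term, since without that term it was at -0.42. Groups did not overlap for 7 members that were higher, namely HOXB2, HOXB4, HOXB5, HOXB6, HOXB7, HOXB8 and HOXD9, against 18.7% of genes. They did not overlap for 7 that were lower (HOXA2, HOXA9, HOXA10, HOXA13, HOXC4, HOXD8 and HOXD10), against 17.6% of genes. Without the vector library HOXA3 was called, where 4.84% of genes were, HOXB2 was at 1.56 (adjusted p = 0.0820, edgeR) and HOXD8 at -0.49 (adjusted p = 0.740).

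Genes that act with or on the HOX clusters were read in the same fit. Over the 6 comparisons together, 8.91% of the estimates of all genes had an unadjusted p under 0.05 and 0.116% were called by edgeR. The 9 HOX cofactors of the PBX, MEIS and PKNOX families were all tested and 0 were called by edgeR in any of the 6 comparisons (4 of 54 estimates had an unadjusted p under 0.05, and DESeq2 called 0). Of 28 Polycomb and Trithorax regulators tested, 1 was called by edgeR (12 of 168 estimates had an unadjusted p under 0.05). DESeq2 called 4 for knockdown against control, KMT2D, KDM6B, CBX2 and DOT1L, where it called 9% of all genes. KMT2D, a histone H3 lysine methyltransferase of enhancers, was higher in the knockdowns than in the controls (log2 fold change 0.93, SE 0.15, adjusted p = 0.0447, edgeR), at 97.9 and 212 CPM in the controls, 215, 184 and 370.3 in the knockdowns, 284 in the wild type library and 301, 329.8 and 306 in the mutants. The vector value lies among those of the knockdowns, so the groups overlap, and KMT2D was called in 8 of the 18 settings fitted (log2 fold change 0.46 to 1.03, adjusted p from 0.000117 to 0.996). KDM6B, a demethylase that removes the Polycomb mark, had the largest estimate of the list for mutants against control (1.19, SE 0.33, adjusted p = 0.244).

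Of 15 retinoic acid pathway genes tested 0 were called by edgeR in the 6 comparisons (23 of 90 estimates had an unadjusted p under 0.05). DESeq2 called CRABP2 for knockdown against control, and CRABP2, DHRS3 and STRA6 for mutants against control, where it called 9% and 1.03% of all genes. There were lower estimates in 12 of 15 for knockdown (median log2 fold change -0.52) and in 13 of 15 for mutants against control (median -0.52). CRABP2, which carries retinoic acid to its nuclear receptor, was at 102 and 30.9 CPM in the controls, 16.1, 20.4 and 22.4 in the knockdowns, 12.3 in the wild type library and 10.4, 8.22 and 7.43 in the mutants. Its log2 fold changes against control were -1.69 (SE 0.37, adjusted p = 0.0630, edgeR) for knockdown and -2.54 (SE 0.45, adjusted p = 0.104) for mutants, and the controls differed from each other by more than the knockdowns did. STRA6, a retinol uptake receptor, was at 72.6 and 119 CPM in the controls, 69.1, 95.3 and 73.5 in the knockdowns, 59.3 in the wild type library and 35.1, 50.5 and 27.97 in the mutants, with -1.43 (SE 0.30, adjusted p = 0.156) for mutants against control. Of 19 other patterning homeobox genes tested 0 were called by edgeR (15 of 114 estimates had an unadjusted p under 0.05), and DESeq2 called 1, MSX1, for knockdown against control. MSX1 was at 4.59 and 16.8 CPM in the controls, 28.1, 22.6 and 29.7 in the knockdowns, 28.6 in the wild type library and 30.2, 24.2 and 25.5 in the mutants, with 1.69 (SE 0.36, adjusted p = 0.0597, edgeR) for knockdown against control.

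Long noncoding and antisense transcripts of the clusters can share reads with their neighbours because the library kit does not mark strand. Of 20 that were matched, 12 were tested and 0 were called by edgeR in the 6 comparisons (6 of 72 estimates had an unadjusted p under 0.05, and DESeq2 called 0). HAGLR, which overlaps HOXD1 and HOXD3, was at 53.99 and 54.6 CPM in the controls, 57.0, 61.04 and 79.6 in the knockdowns, 72.6 in the wild type library and 74.1, 88.96 and 82.7 in the mutants. HOTAIRM1, at the anterior end of HOXA, was at 15.6 and 11.4 CPM in the controls, 22.1, 13.9 and 14.9 in the knockdowns, 18.6 in the wild type library and 14.1, 17.8 and 13.8 in the mutants. HOXA-AS2, antisense to HOXA3 and HOXA4, was at 14.4 and 17.1 CPM in the controls, 13.4, 13.96 and 17.7 in the knockdowns, 17.4 in the wild type library and 11.7, 12.2 and 9.20 in the mutants. In the series A knockdowns, where HOXA3 was highest, HOXA-AS2 was at 13.4 and 14.0 CPM against 14.4 CPM in parental cells. For mutants against knockdown both had lower estimates, HOXA-AS2 at -0.65 (SE 0.24, adjusted p = 0.831, edgeR) and HOXA3 at -0.95. Whether shared reads add to the counts of HOXA3 was not tested. HOTAIR, between HOXC11 and HOXC12, ranged from 3.84 to 7.08 CPM, HOXA11-AS, antisense to HOXA11, from 3.34 to 6.11 CPM and HOXB-AS3, across HOXB5 and HOXB6, from 3.02 to 5.43 CPM. HOXA-AS3 (by HOXA6 and HOXA7), HOXC-AS1 and HOXC-AS2 (by HOXC9), HOXC13-AS (by HOXC13), HOXD-AS2 (by HOXD3) and HAGLROS (by HAGLR) passed the filter below 3 CPM in every library. Of the exon bases of HOXA3, 17.9% are shared with antisense or other transcripts, and of those of HOXA4 47.3%, while HOXA2, HOXA5, HOXB7, HOXB8, HOXB9, HOXB13, HOXC8, HOXD8, HOXD9 and HOXD13 share 0%.

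Since HOX proteins bind with PBX at the motif TGATTNAT, the promoter windows of RefSeq (GRCh38.p14, 250 bases before to 50 after a gene's start) were searched on both strands. The table held 27 windows of 20 members. Their median CpG ratio (observed over expected) was 0.849 against 0.579 over 35116 windows of 27305 genes. The motif was in 2 windows, 7.41% against 2.82% of all windows. Both are shown here with the motif in capitals, and a link to the levels of HOXA2 or HOXD11 was not tested:
HOXA2, chr7:27102780-27102807, plus strand: actgtctgttTGATTGATccaaaaaagt
HOXD11, chr2:176107203-176107230, minus strand: caattcatctTGATTGATtctggtggta
The motifs TATAAA and AGGTCA were searched in the same windows. TATAAA was in 5 member windows, 18.5% against 11.5% of all windows, and AGGTCA in 0, against 13.8% of all windows. A match is a description of letters and not a bound site.

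The labelled identity of the cells was read from marker genes. Of 12 markers of granule neurons and medulloblastoma 8 reached 1 CPM in 2 libraries, among them ZIC1 (12.9 to 23.8 CPM), PAX6 (21.9 to 31.97 CPM) and EN2 (9.72 to 30.6 CPM), while the defining factors ATOH1 and BARHL1 were at 0 in 8 of 9 libraries each and NEUROD1 was at most 0.467 CPM. All 7 mesenchymal markers were expressed, with summed levels of 17890 to 25380 CPM in controls, 21470 to 24620 CPM in knockdowns and 14890 to 24740 CPM in mutants. Of 6 neural stem and glial markers 5 were expressed, and of 4 epithelial markers 2. Of 4 haematopoietic markers, whose lineage uses HOXA9 and HOXB4, 0 reached 1 CPM in 2 libraries, and neither did the 1 endothelial marker matched.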

How the data were processed

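Poly(A) RNA of 9 Daoy libraries was made with TruSeq version 2, which does not mark strand, and read as 100 nt single ends, per the labels' protocols. The authors deposited raw read counts per Ensembl gene, 1 HTSeq table per library. The submitters' processing notes name 2 builds, hg19 and GRCh37, and as tools HISAT2, bcl2fastq, DESeq2 and HTSeq. Tool versions and options: not given in the sources used here. The 5 HTSeq summary lines, which name no gene, held 20.3% to 35.8% of reads per library and were left out before library sizes were summed.

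Symbols came from GENCODE release 29 and the gene table (51996 of 57820 identifiers), and exon lengths, GC content and 3' UTRs from GENCODE release 29, which is on GRCh38. Tests used edgeR 4.0.16 in R 4.3.3 (quasi-likelihood, robust, TMM) on all 9 libraries together, with terms for group and series, on the 16155 genes that reached 1 CPM in 2 or more libraries. P-values were adjusted by Benjamini-Hochberg over all genes tested, and genes were called at 0.05. Residual degrees of freedom were 4 and prior degrees of freedom 5.85. DESeq2 1.42.0 was an alternative. Tested on simulated counts of the 16155 genes, the fit recovered 46% of 2-fold and 100% of 4-fold changes for knockdown against control, 42% and 96% for mutants against knockdown and 10% and 89% for wild type against knockdown. The changed genes were drawn from those with a mean of at least 5 CPM. Spread was smoothed over genes and no series difference was simulated, so these rates need not hold for the members. Counts of libraries within a group differed beyond sampling noise, with a chi-square of 10.2 to 85.7 for each degree of freedom.

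The HOX members and the other gene lists were chosen with earlier results of these data known. Values in all 9 libraries are given for members with a mean of at least 5 CPM, and ranges or limits for the rest. From each other list the rule names every called gene, up to 4, and otherwise the 2 largest estimates per comparison at that mean. Only some of these are printed, a gene that the rule names is not reported here, and genes named because DESeq2 alone called them were added after their values were seen. Other settings were RLE factors, no filter or a mean of at least 5 CPM, no series term, only the groups compared, GC trend removed (loess span 0.4), and each library left out.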

Additional observations from a re-analysis of the deposited data

How the results depend on the processing

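Counts of called members were recomputed under every alternative. For knockdown against control the count of 0 became 1 (HOXA3) with DESeq2 and 1 (HOXA3) with no filter, and ranged from 0 to 3 when 1 library was left out, with 3 (HOXA3, HOXB2 and HOXC12) both without the vector control and without shDDX3X 3. When 1 library was left out it ranged from 0 to 1 for mutants against knockdown and for wild type against knockdown (HOXA3 without shDDX3X 3), from 0 to 1 for mutants against control (HOXA3 without the vector control) and from 0 to 1 for the ORF against the 3' UTR hairpin (HOXC12 without shDDX3X 1). It stayed at 0 for mutants against wild type. Over all genes, the calls for knockdown against control went from 109 to 1313 with DESeq2, 1920 with no filter, 285 with the GC trend removed, 17 at a mean of 5 CPM, 6 without the series term, 0 with only the groups compared and 1 to 2087 with 1 library left out. For mutants against control they went from 3 to 157 with DESeq2, 658 with no filter, 401 with only the groups compared, 24 with the GC trend removed, 1 at a mean of 5 CPM and 0 to 774 with 1 library left out. From 0 calls, those against knockdown reached 996 (mutants) and 596 (wild type) without shDDX3X 3 and 166 and 57 with no filter, and those between hairpins 921 and 85 without shDDX3X 1 or 3 and 26 with the GC trend removed. Mutants against wild type went from 0 to 36 with no filter. The number of expressed members ranged from 33 to 34 when 1 library was left out, and was 36 at 0.5 CPM, 32 at 2 CPM and 27 at 5 CPM.

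Of 241 refitted log2 fold changes of 18 estimates, those with an unadjusted p under 0.05, 232 kept direction and side of the threshold, 7 became called and 2 changed sign. HOXD9, knockdown against control, was at -0.15 with the GC trend removed, and HOXA4, mutants against control, was at -0.42 without the series term. The cause was not tested. The replicate block (controls 1 and 2 with shDDX3X 1 and 2, blocked on the label number) gave 0 called members and 1.74 for HOXA3. Deviations of libraries with the same number correlated at 0.0249, so the numbers were not treated as pairs.

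Depth limits what can be said of members below about 1 CPM. The wild type and the ORF hairpin have 1 library each, and series B has 1 knockdown and 1 control. All 4 re-expressing libraries are in series B, so their folds against knockdowns and controls depend on the series term.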
